A study of Homo sapiens with 8 samples.

Results

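Chromatin accessibility was compared between LX-2 cells cultured for 2 days on a stiff matrix (D2 stiff) and LX-2 cells cultured for 4 days on a soft matrix (D4 soft). LX-2, an immortalised human line, derives from hepatic stellate cells, the liver cells that turn into matrix-producing myofibroblasts in fibrosis. All cells were wild type, came from this 1 line and grew on polyacrylamide hydrogels of about 40 kPa (stiff) or 2 kPa (soft). The question was whether early culture on the stiff matrix left chromatin like that of longer culture on the soft one. Matrix and day both differ between these groups, and their parts cannot be told apart in these 4 libraries. The series held 8 libraries of ATAC-seq, which sequences the DNA that a transposase can reach. These were 2 of D2 stiff and 2 of D4 soft, and 2 of each of the remaining groups, cells of 2 days on the soft (D2 soft) and 4 days on the stiff matrix (D4 stiff). The study's methods call the libraries of a group biological replicates, and the labels do not say which cultures they came from.

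The 2 D2 stiff lists held 59277 and 63684 peaks and the 2 D4 soft lists held 63272 and 56362, together 242595 of the 466883 peaks of the series. The group means were 61481 ± 3116 and 59817 ± 4886 peaks (SD, n = 2 each), and the groups overlapped. Peaks covered 31.2 ± 2.77 Mb of the genome in D2 stiff and 31.9 ± 2.06 Mb in D4 soft (SD, n = 2 each). Depth could be read only from the peaks. The median number of fragments over a summit was 13 and 17 in D2 stiff against 16 and 15 in D4 soft, and the lowest background was 0.383 and 0.431 against 0.558 and 0.564 fragments. Divided by the length of the shortest peak of each list, the lowest background was 2.32 and 2.19 against 2.69 and 2.72 fragments per kb. By this measure of depth the D4 soft libraries were somewhat higher. Fewer cells with a site open and a less open site per cell cannot be told apart in such bulk libraries. Overlapping peaks of the 4 lists merged into 88101 regions. Of these, 38529 (43.7%) had a peak in all 4 lists. A further 3094 had a peak in both D2 stiff libraries and neither D4 soft library (D2 stiff-only, 3.51% of merged regions), and 2054 had a peak in both D4 soft libraries and neither D2 stiff library (D4 soft-only, 2.33%). These lists of one side follow from the rule that chose them and have no test, since 2 against 2 libraries cannot give a two-sided permutation p below 0.333.

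The identity of the cells was checked at gene starts. Of 12 stellate cell markers, 8 had a peak within 1 kb of a start in all 4 lists, among them ACTA2 (smooth muscle actin), PDGFRB (a PDGF receptor) and COL1A1 (a collagen I chain). COL3A1, DES and LRAT had none in any of the 4. Of 10 hepatocyte genes, CYP2E1 was the 1 with a peak in all 4 lists, and ALB, APOA1 and HNF4A had none. Of 7 lymphocyte list genes CD8A had a peak in all 4 lists, CD3D had one in both D2 stiff and neither D4 soft library (3.55 and 4.19), and the remaining 5, CD3E and the general leukocyte gene PTPRC among them, had none. Of 7 macrophage genes CD68 and CD14, of 7 cholangiocyte genes EPCAM and SOX9, and of 7 endothelial genes found in the annotation KDR and TIE1 had a peak in all 4 lists. A peak marks an open start, not expression.

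As background, a transposase inserts adapters where DNA is not wrapped tightly, so peaks lie at active promoters and at distal enhancers. In cells that spread on a stiff matrix, the coactivators YAP and TAZ move into the nucleus and act through TEAD factors, which bind GGAATG. AP-1, a dimer of JUN and FOS family proteins that binds TGACTCA, answers to growth factor and MAPK signalling and often shares enhancers with TEAD. Stellate cells in the healthy liver are quiescent, and activated ones make collagens, integrins and contractile proteins.

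The sequences below are windows that reach 50 bases to either side of the summit, from hg19, plus strand. The first 3 belong to the best-ranked D2 stiff-only regions with a TEAD or an AP-1 motif in that window, and the next 2 to such D4 soft-only regions. They are examples of a motif match, and whether these sequences have copies elsewhere in the genome was not tested. Capitals mark GGAATG (TEAD) and TGACTCA (AP-1) or their reverse complements.
CARTPT, D2 stiff-only, chr5:71146804-71146904: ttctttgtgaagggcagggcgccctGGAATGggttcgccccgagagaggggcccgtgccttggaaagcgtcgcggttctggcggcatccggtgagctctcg
FAHD2A, D2 stiff-only, chr2:96100403-96100503: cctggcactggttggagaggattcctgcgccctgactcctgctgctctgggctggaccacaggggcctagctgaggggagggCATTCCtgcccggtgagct
BMP8A, D2 stiff-only, chr1:39985057-39985157: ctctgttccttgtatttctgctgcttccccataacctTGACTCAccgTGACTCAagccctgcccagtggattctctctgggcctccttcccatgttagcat
TSPAN19, D4 soft-only, chr12:85410301-85410401: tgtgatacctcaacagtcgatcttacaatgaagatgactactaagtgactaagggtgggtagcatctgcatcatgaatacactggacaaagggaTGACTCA
DPYD, D4 soft-only, chr1:98525347-98525447: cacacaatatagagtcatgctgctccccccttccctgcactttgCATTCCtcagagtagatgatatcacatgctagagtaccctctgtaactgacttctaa
The next 2 windows are promoters of one side, at the AP-1 gene JUNB and at TNC, which encodes the matrix protein tenascin C. Here capitals mark CCAAT (the NF-Y box) and TGTGGT (RUNX), and neither window held a TEAD or an AP-1 motif.
JUNB, D2 stiff-only, chr19:12902200-12902300: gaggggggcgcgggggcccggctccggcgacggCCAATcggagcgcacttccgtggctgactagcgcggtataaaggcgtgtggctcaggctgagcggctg
TNC, D4 soft-only, chr9:117825927-117826027: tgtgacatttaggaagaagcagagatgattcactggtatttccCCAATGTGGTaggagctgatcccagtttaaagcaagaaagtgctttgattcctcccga

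D2 stiff and D4 soft libraries resembled each other about as much as replicates of one group did. The Jaccard index, the shared over the combined covered bases, was 0.539 on average over the 4 pairs of a D2 stiff and a D4 soft library, with a range of 0.528 to 0.556. It was 0.561 for the D2 stiff replicates and 0.541 for the D4 soft replicates. The highest value between the groups lay above that of the D4 soft replicates and below that of the D2 stiff replicates. With the longer lists cut to 56362 peaks, the values were 0.554, 0.579 and 0.555. Ranks gave a like result. Over 24235 regions with a peak in all 8 lists, Spearman's correlation of fold enrichment was 0.731 on average between D2 stiff and D4 soft libraries, 0.738 between the D2 stiff replicates and 0.759 between the D4 soft replicates. These correlations are across regions, which are not independent. D2 stiff had a Jaccard index of 0.546 on average with D4 stiff, and D4 soft had 0.535 with D4 stiff, both close to the value between D2 stiff and D4 soft. With lists cut to at most 56362 peaks these were 0.579 and 0.566, above the 0.554 between D2 stiff and D4 soft. At that length D2 soft replicate 2 had 0.555 and 0.572 with the D2 stiff libraries and 0.569 and 0.545 with the D4 soft ones. The likeness was thus not particular to D2 stiff and D4 soft.

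The agreement depended on the strength of a peak. Of the 10% of peaks of D2 stiff replicate 1 with the highest fold enrichment, 98.5% overlapped a peak in both D4 soft lists, and of the lowest 10% of peaks 23.1% did. For D2 stiff replicate 2 the shares were 97.6% and 21.6%. In the reverse direction 98.5% and 18.3% of the peaks of D4 soft replicate 1, and 99.3% and 19.4% of those of D4 soft replicate 2, overlapped both D2 stiff lists. Replicates lost their weak peaks in a like manner. Of the lowest 10% of peaks of D4 soft replicate 1, 26.5% overlapped a peak of its own replicate, against 27.2% and 32.5% in the D2 stiff lists. For the lowest 10% of D4 soft replicate 2 the shares were 34.1% in its own replicate and 27.4% and 32.2% in the D2 stiff lists. For D2 stiff replicate 1 they were 43.4%, against 39.7% and 34.1% in the D4 soft lists. For D2 stiff replicate 2 they were 34.8%, against 38.8% and 31.2%. Over the whole list D4 soft replicate 1 shared 72.6% of its peaks with its own replicate and 74.5% and 78.4% with the D2 stiff libraries. Its replicate had the shortest list of the 4, 56362 peaks, and the part of list length in this order was not tested. D2 stiff replicate 1 shared 82.8% with its own replicate and 79.7% and 74.2% with the D4 soft libraries.

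**Figure D1:**
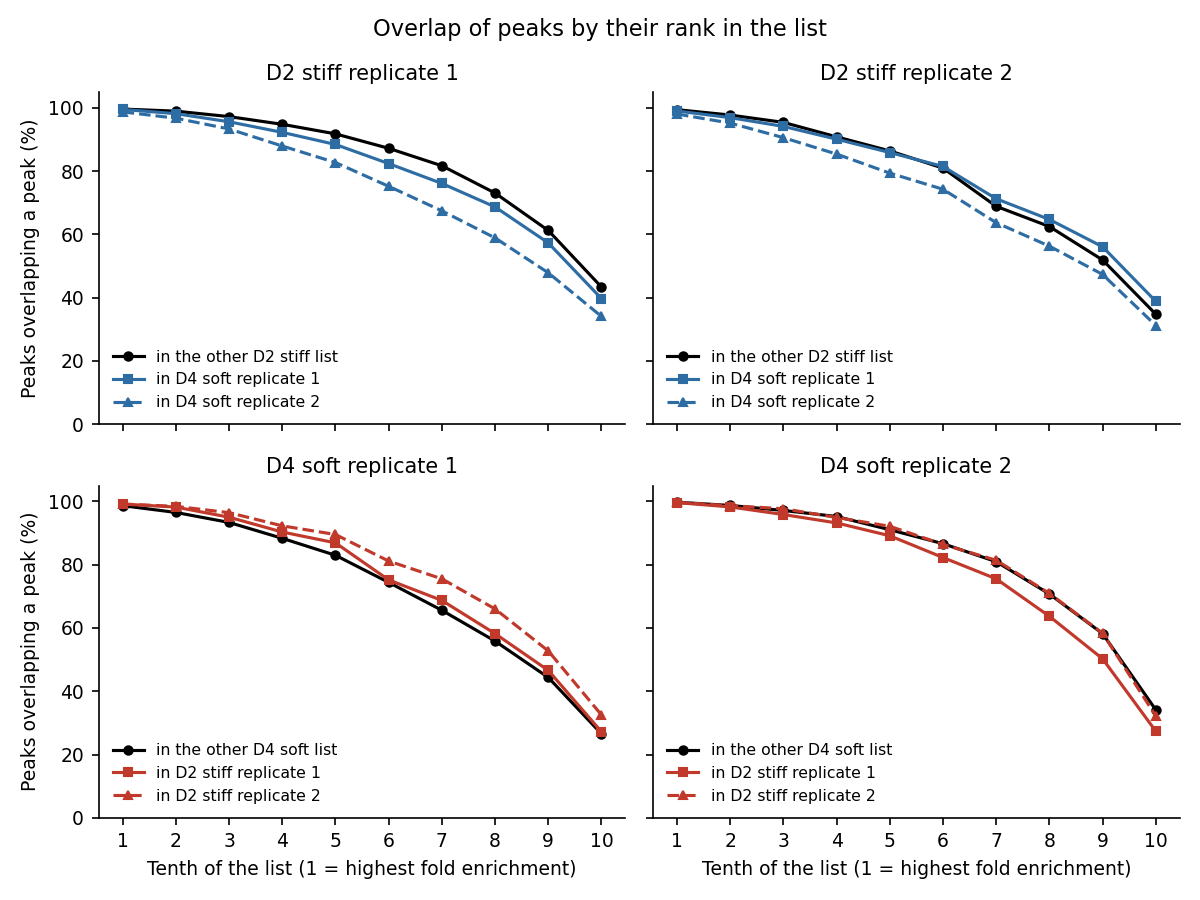
Share of the peaks of each list (y axis, %) that overlapped a peak of another list, in 10 equal steps of fold enrichment (x axis, 1 is the highest). Black lines give the replicate of the same group and coloured lines the lists of the other group. All lines start near 99% and fall together, and for D4 soft replicate 1 both D2 stiff lines end above the line of its own replicate. In no other panel do both lines of the other group end above that of the replicate.

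The D2 stiff-only and D4 soft-only regions came from the weak end of the lists. The median number of fragments at the summit was 9 and 11 in the D2 stiff libraries at D2 stiff-only regions and 8 and 8 in the D4 soft libraries at D4 soft-only regions. At regions in all 4 lists it was 18 and 24 in D2 stiff against 23 and 19 in D4 soft. Only 0.420% and 0.970% of D2 stiff-only regions, and 0.438% and 0.146% of D4 soft-only regions, ranked in the top 10% of their 2 lists. Regions with a peak in a single list were more frequent, with 5369 and 7025 for the D2 stiff and 7922 and 5669 for the D4 soft libraries. The 4 combinations of 1 D2 stiff with 1 D4 soft library held 996 to 2711 regions each, the highest of these between the D2 stiff-only and the D4 soft-only count. D2 stiff-only regions outnumbered D4 soft-only ones under each alternative that asked for a peak in both libraries of a group. The counts were 2660 and 2109 for equal lists, 3099 and 1896 for a q-value up to 0.01, 3735 and 2507 for summit windows and 3037 and 2028 for merging over 8 lists. Leaving out a library eases the rule for both groups, since a peak, or its absence, is then asked of only 1 library of that group. The counts of both sides rose each time. Without D4 soft replicate 1 the counts were 7646 and 7828, and without D4 soft replicate 2 they were 5240 and 10077. Without D2 stiff replicate 1 they were 10219 and 3697, and without D2 stiff replicate 2 they were 8642 and 5162. A rule that asks for a peak in at least 1 library of a group gave 15488 and 15645, so that the order turned.

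Promoters were rarer among regions of one side than among all merged regions, as they were among regions of a single list. Of D2 stiff-only regions 8.73% were promoters, within 1 kb of a protein-coding start (95% Wilson interval 7.78 to 9.77). Of D4 soft-only regions 8.18% were (7.07 to 9.44), against 28.0% of regions in all 4 lists and 17.2% of all merged regions. Regions of a single list had 9.52% and 7.56% in D2 stiff replicates 1 and 2, and 6.74% and 5.75% in D4 soft replicates 1 and 2. Summit windows of 100 bases to either side, in place of whole peaks, gave D2 stiff-only and D4 soft-only shares of 14.2% and 15.4%. Here and below, intervals cover counting error only. D4 soft-only regions lay farther out. The median distance to the nearest start was 41.5 kb for D4 soft-only, 26.5 kb for D2 stiff-only and 17.4 kb for regions in all 4 lists, and 45.6%, 35.2% and 30.6% lay over 50 kb away. Regions of a single list showed the same order. The median distance was 27.6 and 27.7 kb for regions only in D2 stiff replicates 1 and 2, and 39.5 and 44.3 kb for regions only in D4 soft replicates 1 and 2. The median GC content around the summit was 46.8% in D2 stiff-only, 45.3% in D4 soft-only and 50.7% in regions in all 4 lists. The median width was 365.5, 449 and 759 bases.

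The 10 best-ranked D2 stiff-only regions had fold enrichments over the local background of 12.0 to 20.9 and were 201 to 423 bases wide. The first was intergenic, 132 kb from CARTPT (a neuropeptide gene), at chr5:71146741-71146941, with 20.9 and 19.8 in the D2 stiff libraries and no peak in the other 6 lists. The next lay in an intron 27.8 kb from BMP8A (a BMP ligand), at chr1:39984994-39985226, with 18.8 and 17.6, and D4 stiff replicate 2 had 22.9 there. The others lay nearest to FAHD2A, DTNBP1, FAM86B2, TAS2R1, SCGN, TPBGL, FAM13B and KTN1. The genes FAM86B2 and BMP8A have near-identical copies elsewhere in the genome, so that peaks near them are uncertain. Whether the sequence itself has copies elsewhere was not tested for any of the 10 regions, these 2 included. Peaks at the other regions, CARTPT and FAHD2A among them, may thus be uncertain too. Of these 10, 4 had a peak in both D4 stiff lists, 8 in at least 1, and 2 in at least 1 D2 soft list. The AP-1 motif stood within 100 bases of the summit in 5 and the TEAD motif in 3.

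The 10 best-ranked D4 soft-only regions were lower, with fold enrichments of 8.77 to 15.1, and 298 to 653 bases wide. The first lay in an intron 373 kb from a start of DAB1 (a reelin adaptor), at chr1:58262322-58262732, with 11.7 and 12.5 in the D4 soft libraries. It was also found at 7.66 and 10.1 in D4 stiff and at 8.46 in D2 soft replicate 2. The region 139 kb from DPYD (a pyrimidine-degrading enzyme), at chr1:98525311-98525642, had 11.9 and 12.1 in D4 soft, no D2 soft peak, and 8.29 and 10.6 in D4 stiff. Others lay nearest to PHACTR1, TSPAN19, CTNND2, CDK8, DNAJB9, TBX3 and WLS. Of these 10, 8 had a peak in both D4 stiff lists, 10 in at least 1, and 7 in at least 1 D2 soft list. The AP-1 motif stood near the summit in 8 and the TEAD motif in 5.

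Among promoters of one side, the best-ranked D2 stiff-only ones belonged to FAM86B2, ARHGEF7, ABR, UNC93B1, AK9, B3GNT5, PCYT1A, CCL24, RNF4 and SPTB. ARHGEF7 and ABR encode regulators of small GTPases that act on the actin skeleton. The ARHGEF7 promoter (chr13:111854925-111855427) had 9.07 and 11.1 in D2 stiff, and the ABR promoter (chr17:1090283-1090757) had 9.39 and 10.3. Both also had peaks in both D4 stiff lists. The ARHGEF7 promoter had peaks in both D2 soft lists as well (4.07 and 7.61), so that it was missing from the D4 soft lists alone, and the ABR promoter had no D2 soft peak. The best-ranked D4 soft-only promoters belonged to KLRD1, DGKG, GPRASP3, ZNF528, TNC, KATNAL2, ZNF554, CRACD, CHD7 and FANK1. The TNC promoter (chr9:117825895-117826227) had 5.89 and 7.91 in D4 soft, 7.54 in D2 soft replicate 2, and 6.94 and 7.20 in D4 stiff. It was thus absent from both D2 stiff lists and present in 5 of the other 6. TNC also had a D2 stiff-only region in the intergenic space, with 8.24 and 9.93. Each of the 10 D2 stiff-only promoters, and 9 of the 10 D4 soft-only ones, had a peak in at least 1 D4 stiff list, and 6 and 8 of them had one in at least 1 D2 soft list.

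Of the 9 motifs searched, that of TEAD differed most between the sides. GGAATG, on either strand within 100 bases of the summit, was found in 24.2% of D2 stiff-only regions (95% Wilson interval 22.8 to 25.8) and in 15.2% of D4 soft-only regions (13.7 to 16.9). It was found in 18.7% of regions in all 4 lists and in 18.4% of all merged regions. D2 stiff-only regions thus lay above and D4 soft-only regions below the share of all regions. Regions with a peak in a single list, which the rule left out, were ordered alike, with 19.5% and 19.0% for D2 stiff replicates 1 and 2 and 14.2% and 14.3% for D4 soft replicates 1 and 2. With promoters left out the shares were 25.3% in D2 stiff-only and 15.9% in D4 soft-only. Regions in all 4 lists then had 22.8% and all merged regions 20.4%. Single-list regions then had 20.4% and 19.7% for D2 stiff, not above all merged regions, and 14.7% and 14.5% for D4 soft. Between 40% and 50% GC the D2 stiff-only and D4 soft-only shares were 28.4% and 18.1%, against 24.6% in all 4 lists and 22.3% of all merged regions. Between 50% and 60% GC they were 22.4% (19.5 to 25.6) and 12.9%, against 20.8% and 18.7%. Leaving out any 1 of the 4 libraries gave 20.4% to 24.2% for D2 stiff-only and 14.2% to 16.2% for D4 soft-only.

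The AP-1 motif TGACTCA did not order the sides in this way. It was found in 28.0% of D2 stiff-only regions (26.4 to 29.6), 31.3% of D4 soft-only regions (29.3 to 33.3) and 28.1% of all merged regions. Between 40% and 50% GC the shares were 35.2% and 33.8%, and between 50% and 60% GC 29.3% and 26.4%, so that the direction turned. With promoters left out they were 29.6% and 32.98%, and the direction also held with equal lists, a q-value up to 0.01, summit windows and merging over 8 lists. It turned under rules that ask for 1 D4 soft library, to 29.4% and 21.9% without D4 soft replicate 1, 29.7% and 24.3% without D4 soft replicate 2, and 24.2% and 22.6% with at least 1 library per group. Both motifs together stood in 5.59% of D2 stiff-only and 4.38% of D4 soft-only regions. Of the other 7 motifs searched, RUNX (TGTGGT) was found in 19.4% and 17.3%, the E-box CAGCTG in 14.9% and 12.7%, the GC box GGGCGG in 9.18% and 7.01%, the CTCF core AGGGGGC in 5.24% and 4.04%, the CCAAT box in 23.8% and 23.9%, the ETS site CCGGAAG in 1.45% and 1.07% and TGACGTCA in 0.291% and 0.438% of D2 stiff-only and D4 soft-only regions. Over all merged regions these 7 shares were, in the same order, 16.5%, 13.5%, 14.7%, 5.55%, 24.7%, 3.25% and 0.538%. Intervals did not overlap for the GC box (8.21 to 10.2 and 5.98 to 8.20) and overlapped for the other 6. Both sides lay below all merged regions for the GC box, and below the 22.5% of regions in all 4 lists. It was not compared with promoters left out or within ranges of GC content. All motifs were searched on both strands, and matches to the GC box and the CTCF core can overlap each other. A match to these letters is a description and no proof of a bound factor.

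**Figure D2:**
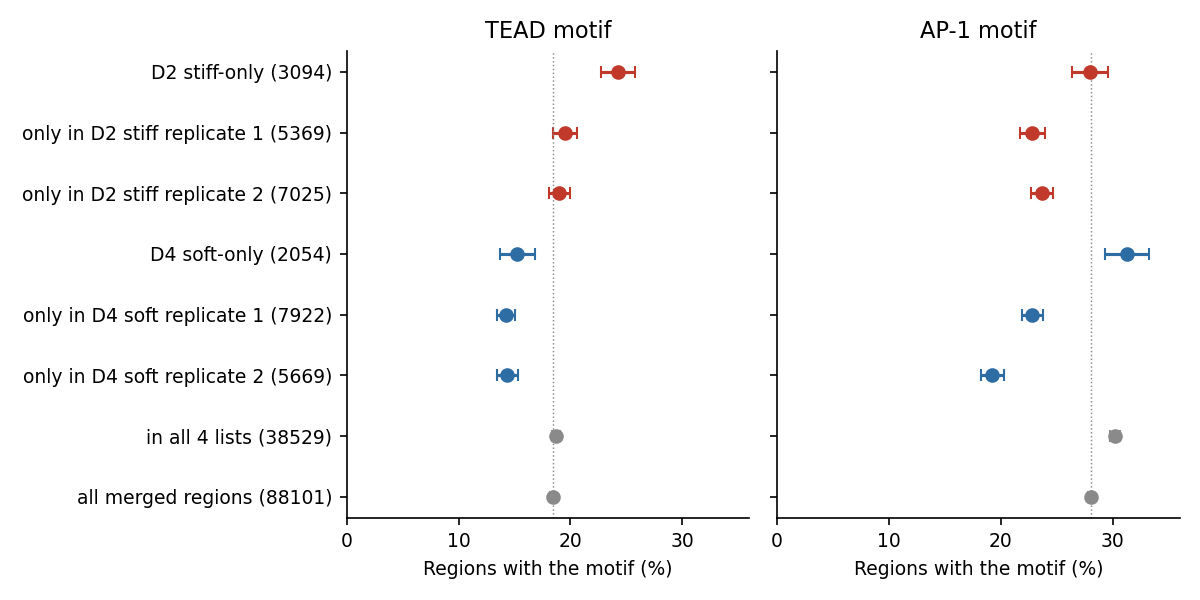
Share of regions (x axis, %) with the TEAD motif (left) and the AP-1 motif (right) within 100 bases of the summit, by set of regions, with the number of regions in brackets. Points are shares, bars 95% Wilson intervals and dotted lines the share of all merged regions. For TEAD the 3 D2 stiff sets (red) lie above the 3 D4 soft sets (blue), and for AP-1 the sets do not fall in that order.

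By nearest start, 2516 of 19794 protein-coding genes (12.7%) had a D2 stiff-only region, 1710 (8.64%) had a D4 soft-only region and 475 had both. Genes with wide intergenic surroundings collect more regions, so that the share of a list's regions was compared with the share of all regions, 3.51% and 2.33%. Collagen genes stood at 5.51% and 1.97% of their 254 regions, and 11 of 16 had a D2 stiff-only and 4 a D4 soft-only region. The best-ranked D2 stiff-only region lay in an intron of COL4A2 (a basement membrane collagen), at chr13:110964859-110965201, with 9.33 and 7.67, and held a TEAD motif. COL4A1 had 6.48 and 10.8, COL3A1 6.62 and 9.36, and COL5A1 7.35 and 6.55. On the D4 soft side COL15A1 had 6.83 and 5.20 and COL12A1 5.14 and 4.80. The median rank difference over 107 collagen regions in all 4 lists was -0.01 on the score scale explained below, against -0.00155 over all regions, so that the collagen regions present in both groups did not lean to the stiff side.

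The lists for adhesion and for YAP/TAZ-TEAD also lay above the D2 stiff-only share of all regions, 3.51%. Integrins and focal adhesion lay above the D4 soft-only share, 2.33%, as well, and the YAP/TAZ-TEAD list lay below it. At regions in all 4 lists the median rank differences of these 2 lists were -0.04 and 0.00944, against -0.00155 over all regions. Integrins and focal adhesion had 13 D2 stiff-only and 7 D4 soft-only regions (4.76% and 2.56% of 273), at 8 and 4 of 20 genes. TNS1 (tensin) had 10.8 and 11.4 in D2 stiff, PTK2 (focal adhesion kinase) 9.04 and 12.8, LPP 7.56 and 8.05, and ITGA2 6.16 and 7.69. The D4 soft-only side included the ITGB1 promoter, with 7.69 and 4.48, and regions of ITGA1, LPP and ITGA5. The YAP/TAZ-TEAD list had 11 and 4 regions (4.53% and 1.65% of 243), at 8 and 4 of 19 genes. CCN2 (connective tissue growth factor, a YAP target) had 6.57 and 10.9 in D2 stiff at a region 109 kb away, and 5.54 and 4.48 in D4 soft at another 156 kb away. TEAD4 had 6.06 and 10.4, WWTR1 (TAZ) 7.19 and 8.05 and ANKRD1 4.73 and 8.70 in D2 stiff. VGLL3, LATS2 and CRIM1 had D4 soft-only regions.

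TGF-beta and PDGF signalling had 12 and 4 regions (4.17% and 1.39% of 288), at 9 and 4 of 19 genes. Its best-ranked D2 stiff-only regions lay at TGFB2 (a TGF-beta ligand), with 8.40 and 8.61, SMAD2, SMAD4 and TGFBR3. TGFBR3, PDGFD, the SMAD4 promoter and TGFBR2 were on the D4 soft side. Cell-cell junction genes had 16 and 11 regions (4.62% and 3.18% of 346), with PCDH7, CDH2, TJP1 and CTNNA1 on the D2 stiff side and CDH2, CTNND1, GJA1 and AFDN on the D4 soft side. CDH2 encodes N-cadherin, and its intronic D4 soft-only region 2.72 kb from the start had 10.8 and 7.73 and no peak in the other 6 lists. Contractile genes had 4 D2 stiff-only regions, at CALD1, MYH9, ACTA2 and TLN1, and 0 D4 soft-only regions of 161, with a share of 2.48% that lay under that of all regions. Stellate lineage factors had 10 and 5 of 299 regions (3.34% and 1.67%). NR2F2, ETS2, FOXF1 and GATA6 led the D2 stiff side, and NR2F2, WT1, the GATA4 promoter (5.13 and 3.20 in D4 soft) and IRF1 the D4 soft side.

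In the remaining lists the share of D2 stiff-only regions lay under that of all regions. Inflammatory mediators had 4 D2 stiff-only and 6 D4 soft-only regions (2.38% and 3.57% of 168), the NFKB1 promoter (4.24 and 5.02) and TNFAIP3 (8.96 and 6.86) among the latter. Cell cycle genes had 4 and 6 (2.31% and 3.47% of 173), with MKI67 at 7.06 and 6.40 and the CCND3 promoter at 3.43 and 2.75 in D4 soft. Matrix glycoproteins had 7 and 7 of 249, led by FBN2 on the D2 stiff and THBS1 on the D4 soft side, and remodelling enzymes had 3 and 3 of 111. LOXL4 and the PLAT promoter stood on the D2 stiff side of the latter and TIMP3, MMP1 and MMP9 on the D4 soft side. ERK/MAPK genes had 5 and 4 of 245, with SPRY1 on the D2 stiff side and DUSP5 on the D4 soft side. AP-1 subunits had 2 and 1 of 146, and mechanosensing channels and nuclear linkers 4 and 2 of 146, with SYNE1, the SUN2 promoter and MRTFB on the D2 stiff and SYNE2 and PIEZO2 on the D4 soft side. Median rank differences of the 14 lists at regions in all 4 lists ran from -0.19 (cell-cell junctions) to 0.10 (remodelling enzymes). These counts are small, and no list was tested.

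**Figure D3:**
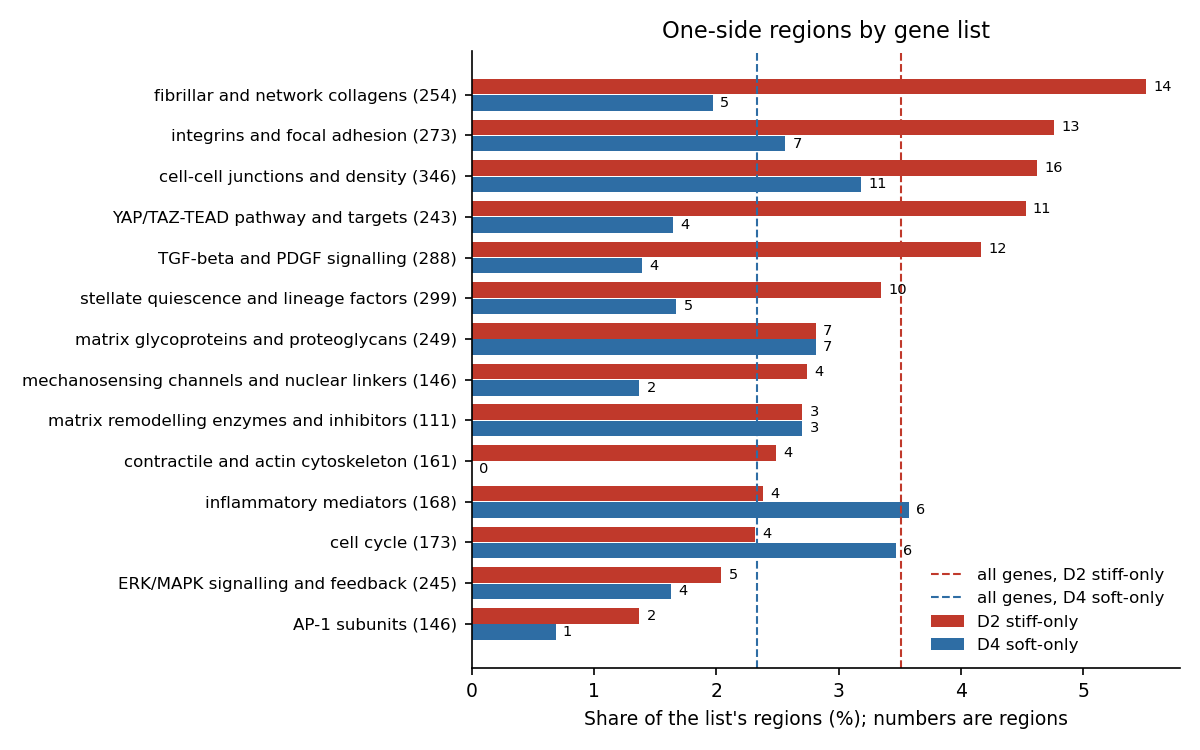
Share of the regions of each gene list (x axis, %) that were D2 stiff-only (red) or D4 soft-only (blue), with the number of regions of the list in brackets and of each bar at its end. Dashed lines give the shares over all merged regions, 3.51% and 2.33%, and collagens, with 14 and 5 regions, lie farthest above the D2 stiff line.

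The genes with most D2 stiff-only regions were CITED2 (8 of its 53 regions) and PCDH7 (8 of 89), followed by KCNMA1, NTM and TMEM132C with 5 each. CITED2 is a transcriptional coregulator, and KCNMA1, a potassium channel gene, had a D2 stiff-only promoter. On the D4 soft side CDH2 (6 of 64) and GPAT3 (6 of 24) led, followed by CDH9, PDE4D and TENM2 with 5 each. GPAT3 encodes an enzyme of triglyceride synthesis and had 0 D2 stiff-only regions. Its 6 regions lay from 25.4 to 438 kb from the start.

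Genes that the study singled out were largely open in both groups. Promoter peaks stood in all 4 lists at COL8A1, ITGB2, IGFBP3, MMP9, ACTA2, JUN, FOS, FOSL1, FOSL2 and ATF3. At ACTA2 the fold enrichment was 11.8 and 10.5 in D2 stiff against 13.2 and 9.35 in D4 soft, and the groups overlapped. At FOSL2 it was 5.69 and 6.99 against 7.91 and 6.56, and at COL8A1 6.09 and 5.57 against 4.72 and 3.94. The COL8A1 promoter had 7.40 and 6.20 in D2 soft, above both D2 stiff values, and 5.56 and 6.71 in D4 stiff. Its fragments at the summit overlapped between the groups, with 21 and 27 in D2 stiff against 21 and 13 in D4 soft. ACTG2, VCAN and TIMP4 had no promoter peak in these 4 lists, and MMP2 had one in D2 stiff replicate 2 and D4 soft replicate 2. JUNB was the exception, with 5.20 and 4.91 in D2 stiff, 4.46 and 5.13 in D4 stiff, 6.33 in D2 soft replicate 2 and no peak within 1 kb in D4 soft or D2 soft replicate 1. A D2 stiff-only region 46.1 kb from JUN (chr1:59295427-59296122) had 9.98 and 10.3 in D2 stiff, and also 9.73 and 10.9 in D4 stiff and 10.1 in D2 soft replicate 2. COL8A1 had 2 regions on each side, ACTA2, IGFBP3 and ITGB2 had 1 D2 stiff-only region each and MMP9 had 1 D4 soft-only region.

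The 4 libraries outside the comparison give a readout that the rule did not use. Of D2 stiff-only regions, 46.7% had a peak in both D4 stiff libraries (95% Wilson interval 44.95 to 48.5) and 3.94% in both D2 soft libraries (3.31 to 4.69). Of D4 soft-only regions, the shares were 38.5% (36.4 to 40.6) and 4.72% (3.89 to 5.73). Regions of either side were thus found more often in D4 stiff, which shares the matrix with the one and the day with the other, than in D2 soft. D2 soft replicate 1 had 29789 peaks, the fewest of the series, and with D2 soft replicate 2 alone the shares were 38.6% and 37.3%, with intervals that overlap. D2 stiff-only regions with peaks in both D4 stiff and neither D2 soft library, the pattern that follows the matrix, numbered 667 (21.6%). D4 soft-only regions with peaks in both D4 stiff and neither D2 soft library, the pattern of day 4, numbered 336 (16.4%). The patterns of day 2 (both D2 soft, neither D4 stiff) among D2 stiff-only regions and of the soft matrix among D4 soft-only regions held 7 and 13 regions. Regions in all 4 lists were as uneven. Of these, 1283 (3.33%) had peaks in both D4 stiff and neither D2 soft library, and 7 (0.0182%) in both D2 soft and neither D4 stiff library. List lengths differ between D4 stiff and D2 soft, so that these counts do not weigh matrix against day. In none of the 4 other lists were 461 D2 stiff-only (14.9%) and 393 D4 soft-only regions (19.1%) found. Of regions in all 4 lists, 96.8% had a peak in both D4 stiff and 63.2% in both D2 soft libraries. Both D4 stiff lists are longer than any of the 4 compared, and with all lists cut to at most 56362 peaks the D4 stiff shares were 38.6% and 27.3%. Leaving out a D2 stiff library asks for a peak, or its absence, in 1 D2 stiff library in place of 2. This turned the order of the shares, to 27.1% and 52.0% without replicate 1 and 27.8% and 58.7% without replicate 2. Without D4 soft replicate 1 the shares were 63.5% and 18.4%, and without replicate 2 56.6% and 18.7%.

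**Figure D4:**
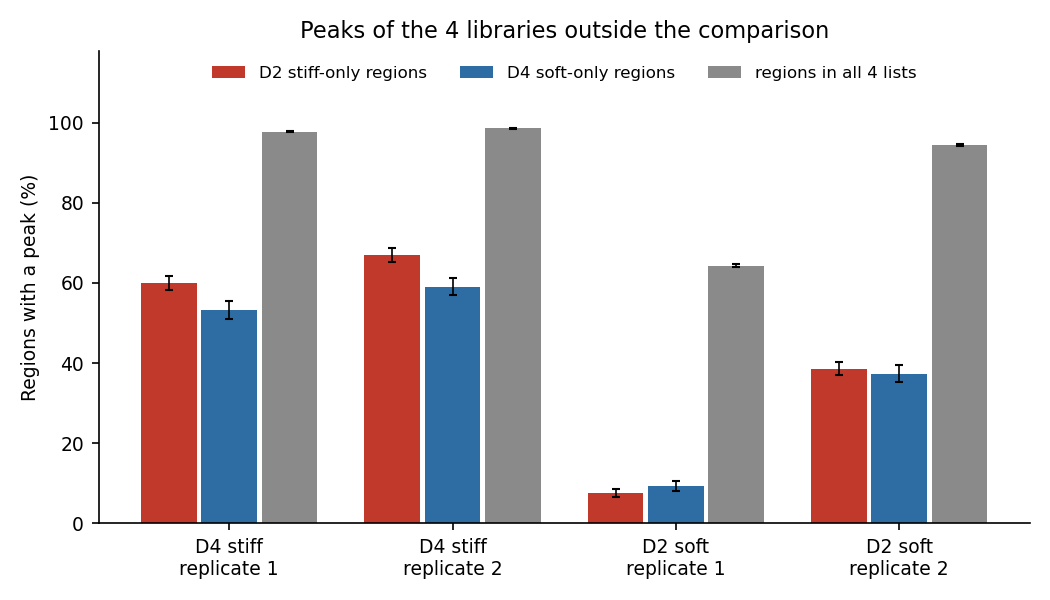
Share of D2 stiff-only (red), D4 soft-only (blue) and regions in all 4 lists (grey) that had a peak in each library outside the comparison (y axis, %), with 95% Wilson intervals as bars. D2 stiff-only regions lie above D4 soft-only ones in both D4 stiff libraries, and D2 soft replicate 1 has the lowest shares.

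At the 38529 regions in all 4 lists, fold enrichment was ranked within each library and turned into normal scores, so that 0 is the middle of a library. No region differed between D2 stiff and D4 soft at an adjusted p under 0.05 by limma, the only tool run (0 higher in D2 stiff and 0 higher in D4 soft, 0% of regions each, lowest adjusted p = 0.109). At an unadjusted p under 0.05 there were 1374 and 1325 regions, together 7.01%, where a share of 0.05 is expected without any difference. Both D2 stiff libraries lay above both D4 soft libraries at 6848 regions (17.8%) and below at 6870 (17.8%), and the groups overlapped at 24811 (64.4%). Exchangeable libraries, 2 against 2, would be separated in one direction or the other at a share of 0.333 of regions. The counts of separated regions were near that share. Fits that left out D2 stiff replicate 1 called 11 and 6 regions, and fits without D2 stiff replicate 2 called 9 and 38, with a single library left in that group. The mean score difference between groups had an SD of 0.53 across regions. The difference between replicates had an SD of 0.71 in D2 stiff and 0.68 in D4 soft. The latter are differences of single libraries, which vary more than means of 2. These SDs thus do not show that the groups differed less than replicates did. A mean difference over 2 was seen at 15 regions toward D2 stiff and 14 toward D4 soft.

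The regions with the largest differences were distal, and none of the 20 described here was a promoter. Toward D2 stiff the first was in an intron of ARHGAP23 (a GTPase-activating protein), at chr17:36640552-36641341. Its fold enrichment was 8.25 and 11.03 in D2 stiff against 4.02 and 3.35 in D4 soft, a score difference of 2.55 ± 0.47 (SE, n = 2 per group, adjusted p = 0.109 by limma). The next, 10.8 kb from NADK, had 19.1 and 16.6 against 9.36 and 7.67 (2.52 ± 0.47, adjusted p = 0.109 by limma). A region in an intron of SYNPO2 (synaptopodin 2, an actin-binding protein) had 9.56 and 10.3 against 3.85 and 3.84. The others were nearest to DDX18, NDUFV2, SSPN, ZFP36L1, EHBP1, SKAP1 and AKAP1, and the TEAD motif stood in 6 and the AP-1 motif in 2 of the 10. In D4 stiff ARHGAP23 had 8.93 and 10.6 and SYNPO2 9.98 and 10.02, near their D2 stiff values.

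Toward D4 soft the first was an intergenic region of chromosome Y, 298 kb from KDM5D, with a score difference of -2.58. A region 35.9 kb from TMTC2 (chr12:83044463-83045017) had 4.34 and 7.02 against 12.4 and 10.8, a score difference of -2.45 ± 0.48 (SE, n = 2 per group, adjusted p = 0.123 by limma). Others were nearest to CFC1, NR0B1, CADM2, MBL2, LRRFIP2, JAG1 and SMARCA2. JAG1 encodes a Notch ligand, and the region lay 505 kb away, with 6.44 and 7.70 in D2 stiff against 13.0 and 11.9 in D4 soft. The AP-1 motif stood in 6 and the TEAD motif in 3 of the 10. All 20 regions had a peak in both D4 stiff lists, and their adjusted p ran from 0.109 to 0.285 by limma.

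**Figure D5:**
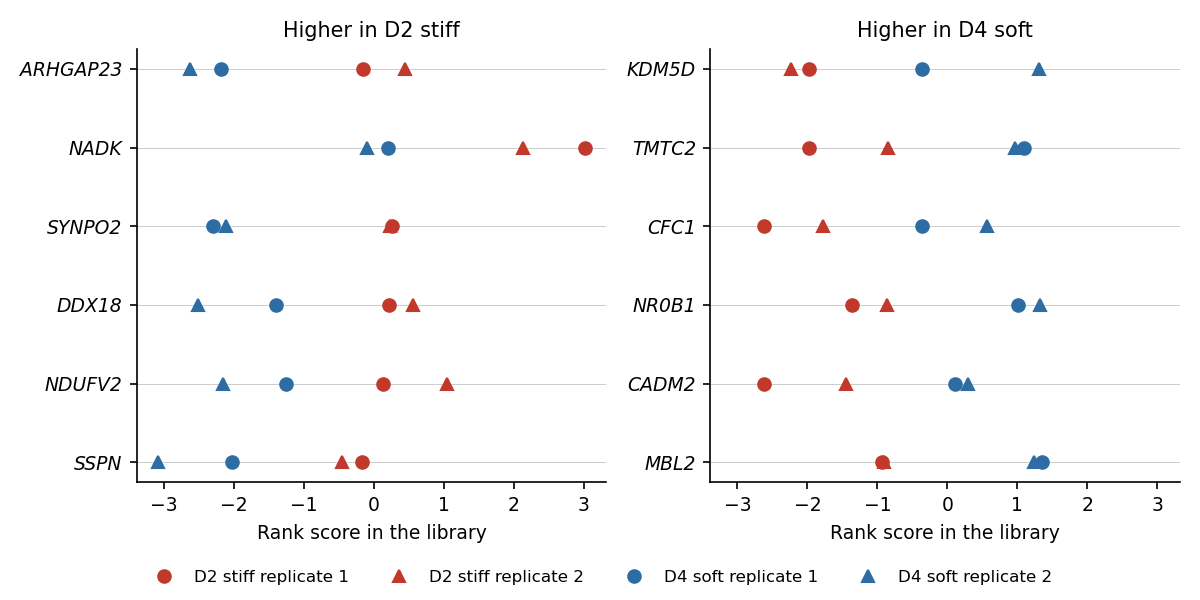
Rank scores (x axis, 0 is the middle of a library) at the first 6 regions in all 4 lists by mean difference in each direction, named by the nearest gene. Red marks are D2 stiff and blue marks D4 soft, circles replicate 1 and triangles replicate 2. The marks of the groups do not overlap at these regions, which were chosen for that, and no adjusted p was under 0.109.

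Over regions in all 4 lists the TEAD motif again went with D2 stiff. Of 7211 such regions with GGAATG, both D2 stiff libraries lay above both D4 soft libraries at 20.8% and below at 16.0%, against 17.8% each over all regions. The median difference was 0.05 against -0.00155. With promoters left out, 21.3% lay above and 15.7% below. AP-1 motif regions leaned the other way, with 16.3% above and 18.6% below and a median difference of -0.03. These shifts were small beside the SD of 0.53 across regions. Across the 24235 regions in all 8 lists, the median score of TEAD motif regions was 0.06 and 0.09 in the D2 stiff libraries against 0.04 and 0.04 in the D4 soft ones, with 0.03 and 0.06 in D4 stiff and 0.02 and -0.00471 in D2 soft. Both D2 stiff values thus lay above both D4 soft values. With promoters left out the groups overlapped, with 0.08 and 0.14 in D2 stiff against 0.08 and 0.06 in D4 soft, where D4 soft replicate 1 lay above D2 stiff replicate 1. At single regions, the difference between the groups was compared with that of the libraries left aside. D2 stiff minus D4 soft and D4 stiff minus D2 soft, which share no library, had a Spearman correlation of 0.0175 across these regions, and its sign turned without D2 stiff replicate 2 (-0.0607) and without D4 soft replicate 2 (-0.0133).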

How the data were processed

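ATAC-seq peak lists of LX-2 cells were used as deposited, 1 list for each of 8 libraries, each grouped by its label. Reads were trimmed with Trim Galore and mapped to hg19 with Bowtie2 2.4.1, and the submitters' notes also name Picard and bedtools 2.24.0. Per library, MACS2 called peaks at a q-value up to 0.05. Other options are not given in the sources used here. The deposited fold enrichment is a ratio, fragments stacked at a summit over the background that the authors' peak caller estimated nearby. Of the other deposited values, −log10 p served to recover fragments and as another rank, −log10 q as a stricter threshold, and the integer score was not used. The summit offset was used for motif windows.

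Fragments at summits were recovered from fold enrichment and p under the Poisson model of MACS2, for all but 1 or 2 peaks a list (−log10 p within 0.001). Since reads were not used here and fold enrichment is relative to its own library, values were compared as ranks. Regions merged peaks of the 4 lists (overlap of at least 1 base). GENCODE 44 on GRCh37 (the same build) gave protein-coding starts; coordinates are 1-based. Normal scores were fitted with limma 3.58.1 (R 4.3.3; lmFit, eBayes) on 4 libraries without a replicate block, with Benjamini-Hochberg adjustment over all regions, and the fit was tested on simulated data. Counts of one-side regions have no test.

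Named are the 10 best-ranked one-side regions and promoters and the 10 largest rank differences in each direction, the 5 genes with most one-side regions, up to 4 members per gene list, and genes the study names. The members and lists were chosen with earlier results of these data known. Alternatives were list length, q-value, summit windows, merging over 8 lists, each library left out, other ranks, a replicate block and all 8 libraries in 1 fit. A comparison of D2 soft by replicate 2 alone was chosen after seeing the data. Some items are not reported here.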

Additional observations from a re-analysis of the deposited data

How the results depend on the processing

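The number of regions in all 4 lists stayed within 1.5 times under each alternative run for it, with 40167 to 43095 when 1 library was left out. D2 stiff-only and D4 soft-only counts did so for equal lists, a q-value up to 0.01, summit windows and merging over 8 lists, but not with 1 library left out (5240 to 10219 and 3697 to 10077) or with at least 1 library per group (15488 and 15645), rules that are easier to meet. D2 stiff-only and D4 soft-only shares with both D4 stiff peaks were 38.6% and 27.3% with equal lists, 39.9% and 33.9% with summit windows, 23.2% and 15.5% with at least 1 library, and 27.1% to 63.5% and 18.4% to 58.7% with 1 library left out. Their shares with both D2 soft peaks were 6.10% and 7.30% with summit windows, 1.59% and 1.5% with at least 1 library, 1.95% to 9.86% and 1.9% to 11.8% with 1 library left out, 38.6% and 37.3% for D2 soft replicate 2 alone, and 6.92% for D4 soft-only regions with equal lists. The mean Jaccard index was 0.554 with equal lists, 0.352 with summit windows and 0.532 to 0.547 with 1 library left out. The correlation of the 2 contrasts was 0.0775 on ranks of −log10 p and ran from -0.0607 to 0.0932 with 1 library left out. Limma called 0 regions under 8 other rankings, lists or region sets (650 to 1568 higher in D2 stiff and 652 to 1413 higher in D4 soft at an unadjusted p under 0.05). With the replicate block it called 8 and 7, higher in D2 stiff and in D4 soft. The replicate number is not known to pair libraries. Same-numbered deviations had a correlation of -0.0359 across regions. That value cannot exclude a pairing that acts at some regions or follows another numbering. With 1 library left out it called 0 to 11 and 0 to 38, most without D2 stiff replicate 2 (9 and 38), where the lone library of a group is assumed to vary like the other group. The cause of these moves was not tested. Depth limits what a missing peak means: one-side regions had a median of 8 to 11 fragments at the summit, so that regions close to the calling threshold may be open in both groups.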

Other observations

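The numbers inside the peak names differ from the replicate numbers of the labels. D2 stiff replicates 1 and 2 carry the numbers 2 and 3, D4 soft replicates 1 and 2 carry 1 and 3, D4 stiff replicates carry 2 and 3, and D2 soft replicates carry 1 and 2. Groups were taken from the labels, and no pairing of libraries was read from either number.

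Some genes had regions on both sides within one locus. CDH2 had 2 D2 stiff-only and 6 D4 soft-only regions, CDH9 had 3 and 5, PDE4D had 2 and 5, and TENM2 had 3 and 5. These genes have from 64 to 138 merged regions each, and 475 genes in all had regions of both sides.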
